A study of Mus musculus with 107 samples.

Results

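Interneurons that express cortistatin (Cort+ neurons) were compared with 3 populations of cortical layer neurons in the mouse, on 12 microarrays of a series that holds another 95. The 3 Cort+ arrays and the 9 layer arrays, 3 each of layer 5a, layer 5b and layer 6 neurons, were chosen by their labels alone, and the 3 layer populations were weighted equally. All 12 arrays held RNA from translating ribosome affinity purification (TRAP), in which ribosomes carrying a tag that only 1 genetically defined cell type makes are pulled out of a tissue extract together with the messenger RNA on them. Each population came from 1 line of bacterial artificial chromosome (BAC) transgenic mice: line GM130 with the driver cort for the Cort+ neurons, line TS88 for layer 5a (its driver is not analysed here), line DU9 with the driver glt25d2 (now Colgalt2) for layer 5b, and line TS16 with the driver ntsr1 for layer 6. A further 9 arrays of unbound cortex RNA, the RNA left after the purification in other cortical lines, served as a measure of whole tissue, and none of them came from the Cort+ line. Age and the number of animals behind an array are not given in the sources used here, so the spread between arrays of a group may be technical. The p-values measure only spread between arrays, pooled for each gene over all groups of the series. In that pool, unbound arrays of different lines form 1 group per tissue.

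Cortical interneurons release the inhibitory transmitter GABA and act on nearby cells, whereas the pyramidal neurons of the deep layers release glutamate and send long axons: those of layer 5b mainly to the brainstem and spinal cord, those of layer 5a mainly to other cortex and the striatum, and those of layer 6 to the thalamus. Cortistatin is a neuropeptide closely related to somatostatin, and in the cortex it is made by interneurons that also include somatostatin and parvalbumin cells. Both classes arise in the medial ganglionic eminence of the embryo under the transcription factors Lhx6 and Sox6, while the classes marked by Vip, Htr3a or Ndnf mostly arise in the caudal ganglionic eminence.

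Levels are log2 fluorescence intensities of 1 probe set per gene, scaled so that the spiked control probe sets had the same mean in every group. An intensity under 6 on this scale was treated as too low to measure, and a fold against such a level is given as a bound against 6. A gene was called higher or lower when the adjusted p of limma's moderated test, with Benjamini-Hochberg adjustment over the 10268 genes tested, was under 0.05, the difference was at least 2-fold and the higher side lay above unbound cortex RNA. By this rule 472 genes (4.6%) were higher in Cort+ RNA and 3662 (35.7%) were lower, and the median difference over all genes tested was -0.71. That shift depended on the scaling, since it was -0.22 under quantile normalization, where 955 of 7932 genes (12%) were higher and 1370 (17.3%) lower. Called under both scalings were 405 genes (3.94%) that were higher and 1370 (13.3%) that were lower. Every gene named below as higher or lower was called under both scalings unless the text says otherwise, and relative differences are those left after the median of -0.71 is taken off. Values after ± are SDs over the 3 arrays of a group unless another n is given. The groups also differed in how far they stood from tissue RNA: the median gene lay 0.19 above unbound cortex RNA in the Cort+ group, against 1.36 in layer 5a, 0.73 in layer 5b and 0.63 in layer 6. The arrays of each population shared a smallest value of their own, as when each is normalized apart, so population and normalization batch cannot be told apart. Among probe sets that reached the minimum, 18.1% had the same value on all 3 Cort+ arrays, against 9.53% in layer 5a, 9.89% in layer 5b and 10.4% in layer 6.

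Cort, the gene of the driver, had intensities of 9.20, 8.96 and 9.35 on the Cort+ arrays, against 2.36 on all 3 layer 5a arrays, 2.09 on all 3 layer 5b arrays and 2.10 on all 3 layer 6 arrays. It was above the minimum in the Cort+ group alone among these 4 populations and lay at 2.12 ± 0.84 (SD, n = 9) in unbound RNA, so that it was at least 9-fold higher (difference 6.98, SE 0.21, adjusted p = 1.08e-46, limma). Sst, the somatostatin precursor, had 13.74, 13.63 and 13.95 on the Cort+ arrays, against 10.40, 9.45 and 10.45 in layer 5a, 8.02, 6.90 and 9.28 in layer 5b and 8.33, 9.18 and 8.76 in layer 6. The lowest Cort+ array lay above the highest layer array, and Sst was well above the minimum in all 3 layer populations. Npy, the neuropeptide Y precursor, had 13.81, 13.68 and 13.90 on the Cort+ arrays, against 10.47, 9.62 and 10.73 in layer 5a, 8.90, 8.14 and 10.04 in layer 5b and 8.50, 9.97 and 9.87 in layer 6, again without overlap. Differences for Sst were 3.68 to layer 5a, 5.71 to layer 5b and 5.02 to layer 6, and for Npy 3.52, 4.77 and 4.35 in the same order. These 3 layer comparisons share the same Cort+ arrays. In such bulk RNA, fewer cells of a type and less RNA per cell cannot be told apart.

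The promoters of the 3 peptide genes with the largest difference between Cort+ and layer RNA were searched for exact matches to TGACGTCA and TAATTA only. The stretches below are RefSeq windows of the build GRCm38.p6, from 250 bases before to 50 bases after the gene start, on the strand of the gene, and are shown because cyclic AMP drives somatostatin through a known element in its promoter. Capitals mark the letters TGACGTCA, the cyclic AMP response element, and TAATTA, a core read by many homeodomain factors. Each reads the same on both strands, and they do not overlap each other. The Cort window is chr4:149126714-149127013 on the minus strand, the Sst window chr16:23890795-23891094 on the minus strand and the Npy window chr6:49822460-49822759 on the plus strand.
Cort: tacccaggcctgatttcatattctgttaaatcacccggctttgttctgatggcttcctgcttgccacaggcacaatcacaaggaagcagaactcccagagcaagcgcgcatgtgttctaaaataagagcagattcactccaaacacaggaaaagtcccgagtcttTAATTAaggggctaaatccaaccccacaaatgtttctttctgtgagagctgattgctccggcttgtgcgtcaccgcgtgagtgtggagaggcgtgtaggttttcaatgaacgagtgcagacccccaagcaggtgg
Sst: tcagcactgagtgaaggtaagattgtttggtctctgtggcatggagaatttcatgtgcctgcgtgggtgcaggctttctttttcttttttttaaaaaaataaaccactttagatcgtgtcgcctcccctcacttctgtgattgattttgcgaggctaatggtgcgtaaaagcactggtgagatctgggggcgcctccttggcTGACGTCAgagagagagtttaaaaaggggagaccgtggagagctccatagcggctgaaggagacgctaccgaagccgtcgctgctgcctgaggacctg
Npy: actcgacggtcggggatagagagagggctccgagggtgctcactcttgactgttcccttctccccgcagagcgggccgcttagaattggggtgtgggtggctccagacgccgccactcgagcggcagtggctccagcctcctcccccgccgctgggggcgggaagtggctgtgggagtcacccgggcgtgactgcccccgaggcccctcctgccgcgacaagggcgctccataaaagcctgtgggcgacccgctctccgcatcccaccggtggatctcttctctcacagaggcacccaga
TGACGTCA stands in the Sst window, starting 48 bases before the gene start, and TAATTA stands in the Cort window, starting 85 bases before it. Of all 32851 windows, 1.79% hold TGACGTCA and 5.29% hold TAATTA. Of the 19 neuropeptide precursor genes tested, 14 had a window, of which 3 hold TGACGTCA (Sst, Scg2 and Chgb) and 3 hold TAATTA (Cort, Pomc and Tac1). A match is a description of the letters only.

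Genes of the somatostatin and cortistatin class had the highest median difference of the 23 lists. Of 21 members, 20 were on the array and 17 passed the filter on low values, which members high in Cort+ RNA could pass through that group alone. 8 were higher, 1 was lower (Th) and 8 were not called, with a median difference of 0.97 against -0.71 over all genes. Over all genes tested, 4.6% were higher and 35.7% lower. Nxph1, a secreted ligand of neurexins that marks these interneurons, had 11.95, 11.43 and 12.02 on the Cort+ arrays, against 9.74, 9.72 and 10.10 in layer 5a, 8.38, 8.38 and 9.45 in layer 5b and 8.83, 9.37 and 9.75 in layer 6. The groups did not overlap and the difference was 5.65-fold (adjusted p = 2.09e-10, limma). Lhx6 had 9.83, 9.12 and 9.67 on the Cort+ arrays, against 8.13, 8.13 and 8.43 in layer 5a, 7.70, 6.94 and 6.70 in layer 5b and 6.85, 6.85 and 6.99 in layer 6, 4.38-fold higher (adjusted p = 1.66e-13, limma) and without overlap. Sox6 had 9.41, 9.42 and 9.42 on the Cort+ arrays, against 8.82, 8.84 and 9.41 in layer 5a, 6.99, 6.76 and 7.01 in layer 5b and 7.11, 7.11 and 7.89 in layer 6. Sox6 was called higher over the 3 layers (difference 1.65, adjusted p = 6.54e-07, limma), but its highest layer 5a array reached the Cort+ level and another of its 3 measurable probe sets had a difference of -0.10. Crhbp, which binds corticotropin-releasing hormone, was 2.7-fold higher, with 11.66, 10.62 and 11.58 on the Cort+ arrays against means of 10.61, 9.89 and 9.06 in layers 5a, 5b and 6.

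Several known members of the class were not called. Calb1, the calcium-binding protein calbindin, averaged 13.49 ± 0.31 in Cort+ RNA, against 13.30, 13.07 and 12.92 in layers 5a, 5b and 6, while its 3 measurable probe sets had differences from 0.39 to 2.41. Elfn1 (0.97), Satb1 (0.76), Grin3a (0.71) and Oxtr (0.44) had positive differences under 2-fold with the control-probe scaling and were called higher under quantile normalization. Chodl, a marker of the rare long-range projecting somatostatin cells, was called with the control-probe scaling by a narrow margin (difference 1.01), was not tested under quantile normalization and lost its call without Cort+ array 3 (1.00) and without 5 of the layer arrays (0.96 to 0.99). Nos1, which marks the same cells, averaged 8.83 ± 0.16 in Cort+ RNA, against 10.10, 9.0 and 9.59 in the layers, and was not called. Th was lower with the control-probe scaling only (difference -1.70, quantile -1.0), at 4.73 on all 3 Cort+ arrays.

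**Figure D1:**
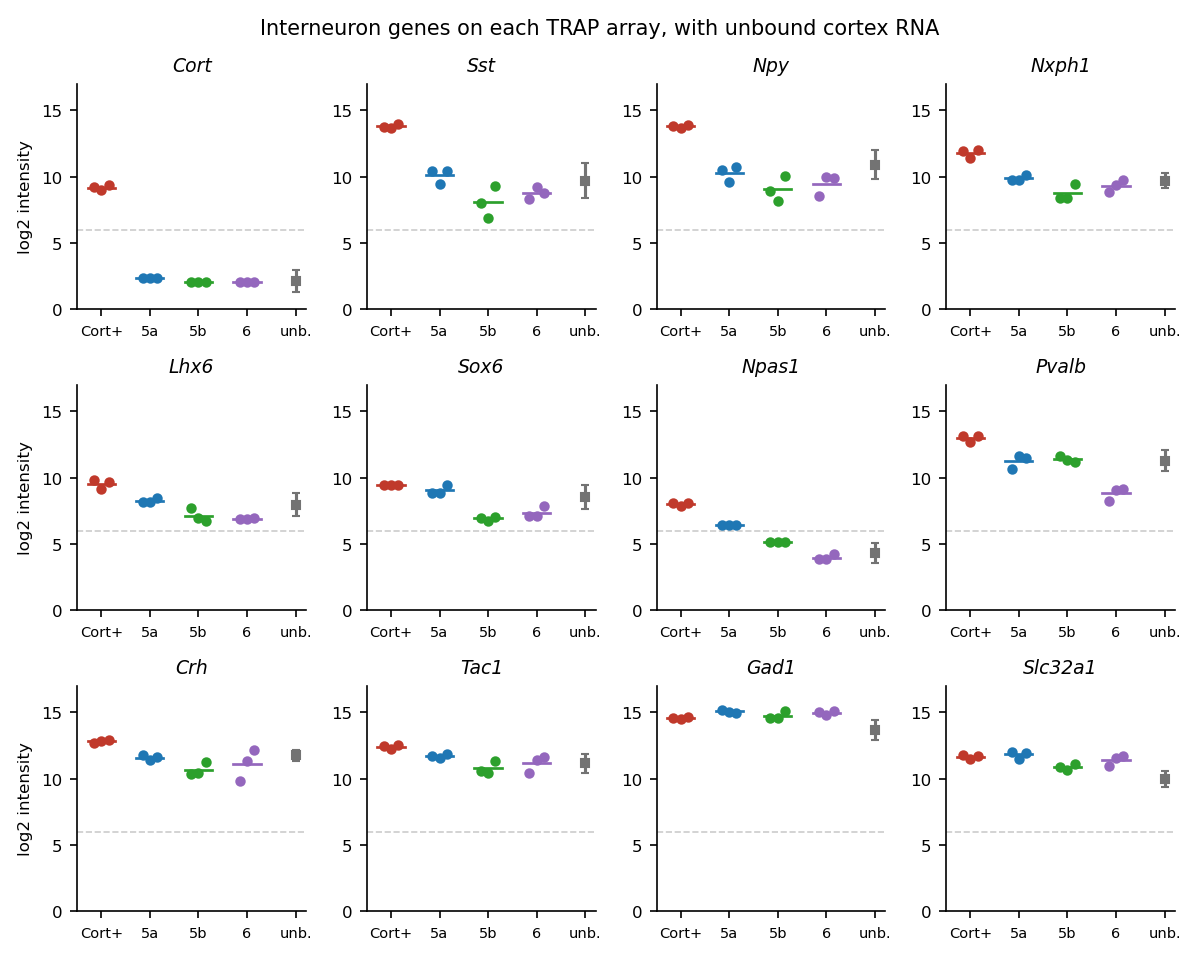
Log2 intensity (vertical axis) of 12 interneuron genes on the 3 arrays each of Cort+, layer 5a, layer 5b and layer 6 RNA. Dots are arrays, short lines group means, the grey square the mean ± SD of 9 unbound cortex arrays (unb.) and the dashed line the minimum of 6. Sst and Npy on the Cort+ arrays, between 13.63 and 13.95, lie above every layer array, while Gad1 and Slc32a1 overlap.

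Genes for the synthesis and release of GABA were not called higher in Cort+ RNA. Gad1, glutamic acid decarboxylase, had 14.59, 14.51 and 14.63 on the Cort+ arrays, against 15.15, 15.03 and 14.96 in layer 5a, 14.55, 14.52 and 15.05 in layer 5b and 14.97, 14.81 and 15.06 in layer 6. The arrays overlapped and the difference of -0.33 (SE 0.29) had an adjusted p of 0.316 (limma), relative difference 0.38. In unbound RNA Gad1 was at 13.68 ± 0.75 (SD, n = 9), and its other measurable probe set had a difference of -1.89. Slc32a1, the vesicular GABA transporter, had 11.73, 11.45 and 11.69 on the Cort+ arrays, against 11.99, 11.50 and 11.93 in layer 5a, 10.87, 10.63 and 11.08 in layer 5b and 10.96, 11.58 and 11.70 in layer 6, with a difference of 0.26 (adjusted p = 0.352, limma). Gad2, the second decarboxylase, averaged 10.14 ± 0.21 in Cort+ RNA, against 11.46, 10.79 and 10.53 in layers 5a, 5b and 6, and was not called. Abat, the enzyme that breaks GABA down, was 3.62-fold lower, with 10.42, 10.32 and 10.42 on the Cort+ arrays against a lowest layer mean of 11.76 in layer 6. Of the 5 tested members of this list of 7, 0 were higher and 2 were lower (4.6% and 35.7% over all genes tested). The second lower one, the GABA transporter Slc6a13, was under the minimum in Cort+ RNA and was not tested under quantile normalization. The layer means of Gad1, 15.04, 14.70 and 14.95 in layers 5a, 5b and 6, all lay above the unbound mean, as did those of Slc32a1 (unbound 9.97).

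Genes of other interneuron classes were called in both directions. Pvalb, parvalbumin, had 13.11, 12.70 and 13.11 on the Cort+ arrays, against 10.63, 11.62 and 11.49 in layer 5a, 11.61, 11.33 and 11.17 in layer 5b and 8.20, 9.07 and 9.14 in layer 6. Its lowest Cort+ array lay above every layer array (5.66-fold higher, adjusted p = 1.62e-09, limma), and layer 6 was the lowest group. Npas1, a transcription factor of interneurons, had 8.11, 7.84 and 8.09 on the Cort+ arrays, against 6.42 on all 3 layer 5a arrays, 5.14 on all 3 layer 5b arrays and 3.83, 3.83 and 4.25 in layer 6, at least 3.67-fold higher. Crh, corticotropin-releasing hormone, was 3.25-fold higher (12.68, 12.80 and 12.94 on the Cort+ arrays, against means of 11.58, 10.67 and 11.08 in the layers), although unbound RNA stood at 11.74 and the Cort+ level was not called above it. Tac1, the substance P precursor, was 2.3-fold higher, with all 3 Cort+ arrays above all 9 layer arrays.

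Ndnf, Kit, Reln and Htr3a, members of the list of other interneuron classes, were lower. Ndnf, a marker of neurogliaform cells, was at 6.19 on all 3 Cort+ arrays, against means of 8.83, 8.63 and 8.51 in layers 5a, 5b and 6, 5.51-fold lower (adjusted p = 9.70e-07, limma). Kit was 3.39-fold lower and Reln, the secreted protein reelin, was 2.85-fold lower, each with all Cort+ arrays under all layer arrays. Htr3a, the serotonin-gated ion channel of these classes, was at 2.21 on all 3 Cort+ arrays, against 6.05 in layer 5a and under the minimum in the other layers, and was not tested under quantile normalization. Vip had 11.62, 12.14 and 11.89 on the Cort+ arrays, against 12.22, 11.87 and 12 in layer 5a, 9.18, 9.01 and 9.37 in layer 5b and 9.30, 10.40 and 10.60 in layer 6. Vip lay above layers 5b and 6 but not above layer 5a. Over the 3 layers its difference was 1.45, which passed the fold and p thresholds. It was not called because its level did not exceed unbound RNA (12 ± 0.61, SD, n = 9). Calb2, Cck, Cnr1, Cxcl14 and Id2 were not called, with differences from -0.53 (Cck) to -0.07 (Id2). In all, 4 of the 20 tested members of this list of 24 were higher and 7 were lower, with a median difference of -0.31. The share of lower members is near the 35.7% over all genes tested, of which 4.6% were higher. Their median lies 0.40 below that of the list. Under both scalings 4 members were higher and 3 lower, beside 3.94% and 13.3% over all genes tested.

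Transcription factors of the GABAergic lineage were called in both directions, by layer in unequal numbers. Of 17 tested members of a list of 24, 8 were higher and 2 were lower (4.6% and 35.7% over all genes tested). The median difference was 0.76. Members high in Cort+ RNA could pass the filter on low values through that group alone, as Dlx6 did. Lhx6, Sox6, Satb1, Npas1 and Nr2f2 belong to an interneuron list as well. Against layer 5a the list had 3 higher and 3 lower members and a median of 0.03. Against layer 5b it had 9 higher and 2 lower, and 7 higher and 2 lower against layer 6. Dlx6 was at 6.31 on all 3 Cort+ arrays and under the minimum in all 3 layers (at least 1.24-fold higher). Dlx2 (at least 1.84-fold), Dlx1 (2.16-fold), St18 (at least 2.51-fold) and Maf (2.88-fold) were higher as well. Against layer 5a alone, Dlx1 differed by only 0.16 and Maf by 0.03, and Dlx1 lost its call without Cort+ array 1 (difference 0.81). Maf also had measurable probe sets with differences from -1.46 to 1.63. Lhx8, a factor of cholinergic and other subpallial neurons, was under the minimum on all 3 Cort+ arrays (3.22), against means of 7.61, 6.37 and 6.45 in layers 5a, 5b and 6, at least 1.75-fold lower.

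The marker transporter Slc17a7 was lower in Cort+ RNA and lay near its level in tissue RNA. With the control-probe scaling, the list of glutamatergic genes as a whole had about the share of lower members that all genes had. Slc17a7, the vesicular glutamate transporter of cortical pyramidal cells, had 8.39, 8.99 and 8.33 on the Cort+ arrays, against 11.08, 11.57 and 10.83 in layer 5a, 9.97, 10.25 and 11.30 in layer 5b and 11.09, 9.95 and 9.74 in layer 6. All Cort+ arrays lay under all layer arrays, 4.2-fold lower (adjusted p = 6.83e-04, limma), while unbound RNA stood at 8.08 ± 1.44 (SD, n = 9). Chn1, a GTPase-activating protein of pyramidal cells, had 11.53, 11.33 and 11.83 on the Cort+ arrays, against 13.71, 14.60 and 14.21 in layer 5a, 14.08, 14.07 and 13.99 in layer 5b and 13.32, 12.74 and 12.16 in layer 6, 4.25-fold lower. Emx1, a transcription factor of the pallium, was under the minimum on all 3 Cort+ arrays (4.82), against means of 7.63, 6.82 and 6.93 in layers 5a, 5b and 6. Of the 20 tested members of this list of 23, 0 were higher, 8 were lower and 12 were not called, beside 35.7% lower over all genes tested. Under both scalings 5 of the 20 were lower, beside 13.3% over all genes tested. Neurod2 (-0.12), Nrgn (-0.51) and Camk2a (-0.68) were among those not called. The measurable probe sets of Camk2a ranged from -1.08 to 4.73.

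Genes of layer 5 output neurons had the lowest median of the glutamatergic and layer lists, with a median difference of -1.38 (relative -0.67). Of 17 tested members of 18, 10 were lower (35.7% over all genes tested), 5 of them under both scalings, and 0 were higher (4.6%). Fezf2, which specifies these neurons, had 8.99, 8.98 and 8.98 on the Cort+ arrays, against 11.24, 10.83 and 11.02 in layer 5a, 11.44, 11.50 and 10.96 in layer 5b and 10.83, 10.96 and 10.84 in layer 6. The 3 layers were close to each other and all above the Cort+ arrays (4.25-fold lower, adjusted p = 2.27e-10, limma). Crym, a thyroid hormone-binding protein, was 3.72-fold lower, Vat1l 4.38-fold lower and the sulfotransferase Chst8 at least 2.95-fold lower. Colgalt2, the gene of the layer 5b driver, was at 2.00 on all 3 Cort+ arrays, against 4.76, 4.97 and 4.76 in layer 5a, 9.83, 10.41 and 9.44 in layer 5b and 2.75 on all 3 layer 6 arrays. It was thus measurable only in layer 5b among these 4 populations. The 4 measurable probe sets of Bcl11b, a transcription factor that interneurons also express, had differences from -1.64 to -0.12, of which the brightest set had -0.12. Bcl11b and the heavy neurofilament Nefh (0.44) were not called.

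Several layer 6 genes were lower in Cort+ RNA than in every layer population. Ntsr1, the neurotensin receptor whose gene drives the layer 6 line, had 5.32, 5.50 and 5.32 on the Cort+ arrays, against 6.66, 6.61 and 6.61 in layer 5a, 6.37 on all 3 layer 5b arrays and 9.45, 9.73 and 9.17 in layer 6. Cort+ arrays were the lowest group and layer 6 stood apart from the others. Wnt7b, a secreted signalling protein, was under the minimum on the Cort+ arrays (4.78, 4.83 and 4.78), against 8.14, 8.85 and 8.14 in layer 5a, 8.64, 8.73 and 8.69 in layer 5b and 7.51, 7.51 and 7.13 in layer 6. Sulf1, an extracellular sulfatase, was at 7.31 on all 3 Cort+ arrays, 3.36-fold lower, with layer means of 8.91, 9.08 and 9.19. Foxp2, a transcription factor of corticothalamic neurons, had 8.78, 9.23 and 8.78 on the Cort+ arrays, against 6.87, 6.31 and 7.39 in layer 5a, 7.55, 7.09 and 7.09 in layer 5b and 9.64, 10.39 and 10.21 in layer 6. It was higher than in layer 5a (2.07, adjusted p = 3.77e-06, limma) and layer 5b (1.69, adjusted p = 1.95e-04, limma), lower than in layer 6 (-1.15, adjusted p = 0.0142, limma), and close to unbound RNA at 8.63. Its 3 measurable probe sets had differences from -0.28 to 0.87 over the 3 layers. Of 19 tested members of 22, 0 were higher and 7 were lower with the control-probe scaling, a share near the 35.7% over all genes tested. Under both scalings 6 of the 19 were lower, beside 13.3% over all genes tested.

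Of the 18 callosal and upper layer genes, 15 were tested, 1 was higher and 5 were lower (4.6% and 35.7% over all genes tested). No lower one was called under both scalings. The higher one was Cux2, a transcription factor of upper layer neurons that interneurons also make, with 11.84, 12.51 and 12.19 on the Cort+ arrays, against 11.76, 10.68 and 11.52 in layer 5a, 11.06, 10.48 and 9.86 in layer 5b and 10.75, 11.44 and 12.08 in layer 6. The groups overlapped through layer 6, unbound RNA stood at 11.44, and the other measurable probe set of Cux2 had a difference of -0.44. Pan-neuronal genes were lower or not called. Of 13 tested members 7 were lower (35.7% over all genes tested), 3 of them under both scalings, and none was higher. Tubb3, neuronal tubulin, had 11.09, 11.09 and 11.14 on the Cort+ arrays, against 14.39, 14.40 and 14.39 in layer 5a, 13.52, 13.45 and 13.17 in layer 5b and 13.27, 12.33 and 12.33 in layer 6, 5.15-fold lower. Rbfox3, the nuclear marker NeuN, averaged 14.19 ± 0.19 in Cort+ RNA, against 14.42, 14.13 and 14.59 in the layers, and was not called.

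**Figure D2:**
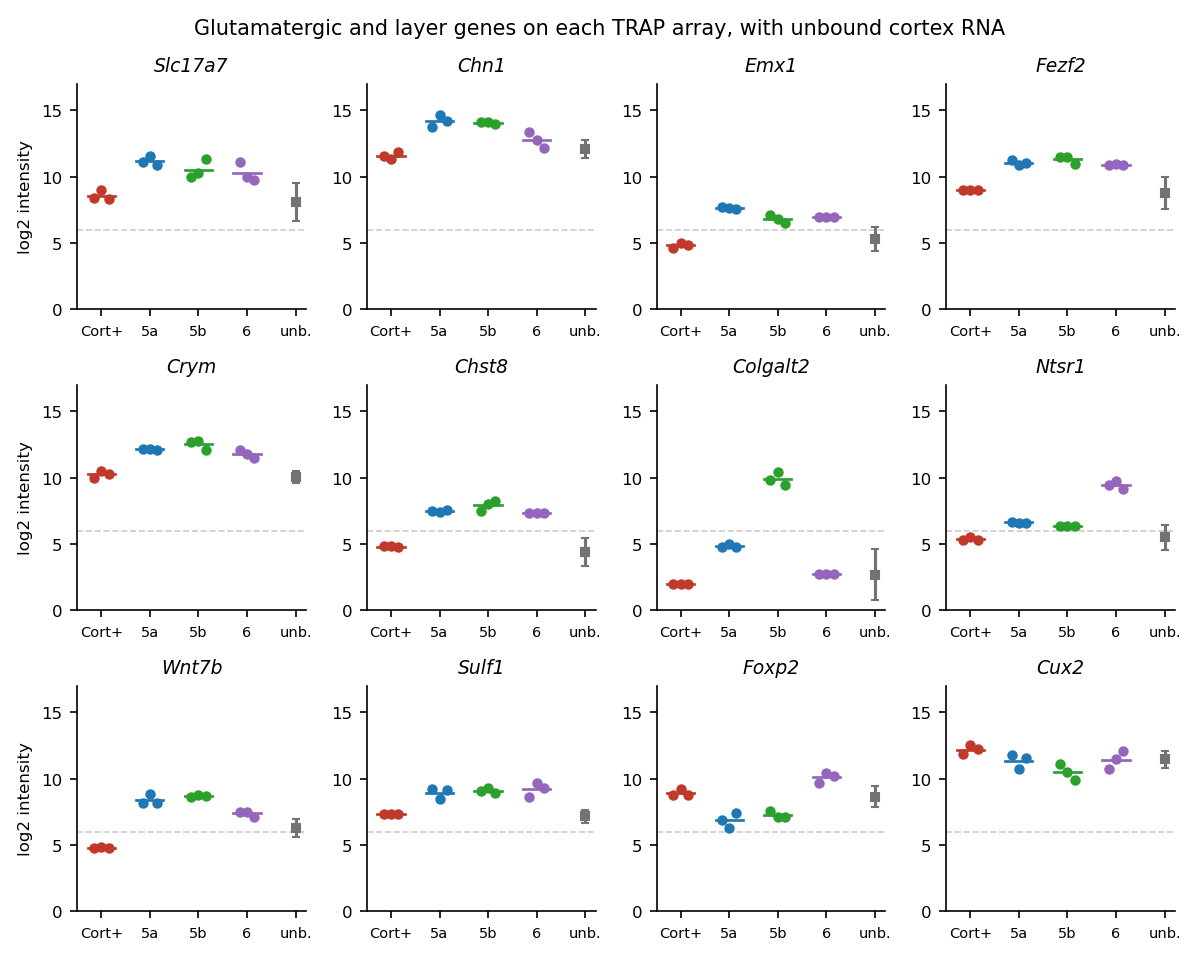
Log2 intensity (vertical axis) of 12 glutamatergic and layer genes on the 3 arrays each of Cort+, layer 5a, layer 5b and layer 6 RNA, with symbols as for the interneuron genes. Colgalt2 exceeds the minimum of 6 in layer 5b only, Ntsr1 peaks in layer 6, and Foxp2 in Cort+ RNA lies between layer 6 and the layer 5 groups.

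Of 41 precursor genes 19 were tested, 5 were higher (Cort, Sst, Npy, Crh and Tac1) and 4 were lower, and the median difference was -0.04. Cort passed the filter on low values through Cort+ RNA alone. Over all genes tested, 4.6% were higher and 35.7% lower. Nts, the neurotensin precursor, was under the minimum on all 3 Cort+ arrays (5.15), against means of 7.87, 7.41 and 6.88 in layers 5a, 5b and 6. Penk, the enkephalin precursor, was lower with the control-probe scaling (2.5-fold) but not under quantile normalization, and Pdyn was not called (-0.04). Of 36 receptor genes 18 were tested, 2 were higher (Oprm1 and Trhr2) and 10 lower, with a median difference of -1.15. Only 2 of the lower ones and neither of the higher ones were called under both scalings. Both higher ones passed the filter on low values through Cort+ RNA alone. Trhr2 was just over the minimum there (6.09), against 3.30, 2.24 and 5.79 in layers 5a, 5b and 6. Crhr1, the receptor for corticotropin-releasing hormone, was at 5.79 on all 3 Cort+ arrays, against 8.29, 8.25 and 8.15 in layer 5a, 7.94, 8.08 and 7.94 in layer 5b and 7.40, 7.55 and 7.55 in layer 6, at least 3.75-fold lower (adjusted p = 4.20e-13, limma). Npy1r, a neuropeptide Y receptor, was under the minimum in Cort+ RNA (3.13), against layer means of 7.07, 6.75 and 6.56, and was not tested under quantile normalization. Among the somatostatin receptors, Sstr2 was 2.8-fold lower with the control-probe scaling only, and Sstr3 (-0.77) and Sstr4 (-0.86) were not called. The mu opioid receptor Oprm1 was at 6.14 on all 3 Cort+ arrays, just over the minimum, against 2.36, 2.97 and 2.10 in layers 5a, 5b and 6 and 1.91 in unbound RNA. Oprm1 was called higher with the control-probe scaling and was not tested under quantile normalization.

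No gene of the receptor lists for fast and modulatory transmitters was called higher with the control-probe scaling, and 35.7% of all genes tested were lower. Of 9 tested GABA receptor genes, 4 were lower and none higher, with Gabra3 3.46-fold lower and Gabrd 3.07-fold lower under both scalings. Gabra4 was not called, with 12.19, 12.19 and 12.20 on the Cort+ arrays against means of 12.09, 12.17 and 12.32 in the layers. Of 19 tested glutamate receptor genes, 7 were lower and none higher, a share near that over all genes, and only Grm8 (at least 2.34-fold lower) was called under both scalings. Grik1, a kainate receptor subunit of interneurons, averaged 9.29 ± 0.33 in Cort+ RNA, against 9.09, 8.35 and 8.16 in layers 5a, 5b and 6, and was called higher under quantile normalization (1.5) but not with the control-probe scaling (0.76). Of 15 tested monoamine and acetylcholine receptor genes, 11 were lower and none higher, 3 of them under both scalings. These were the muscarinic receptor Chrm1, with 8.68, 9.11 and 8.76 on the Cort+ arrays against 11.38, 10.90 and 11.25 in layer 5a, 9.76, 9.76 and 10.17 in layer 5b and 10.43, 10.43 and 10.36 in layer 6, and the serotonin receptors Htr1a (at least 2.73-fold) and Htr5a (at least 1.49-fold).

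Of 41 tested potassium and HCN channel genes, 5 were higher and 12 lower (4.6% and 35.7% over all genes tested). Among the higher ones, Kcnmb2 passed the filter on low values through Cort+ RNA alone. Kcnc1, the Kv3.1 channel that shortens the action potential, had 12.99, 13.01 and 12.99 on the Cort+ arrays, against 11.85, 11.21 and 11.81 in layer 5a, 11.37, 10.80 and 11.20 in layer 5b and 10.74, 11.86 and 12.09 in layer 6. The groups did not overlap (2.95-fold higher, adjusted p = 1.07e-06, limma), and the measurable probe sets of Kcnc1 had differences from -0.04 to 1.56. Kcnmb2, a subunit of calcium-activated potassium channels, had 7.51, 6.80 and 7.34 on the Cort+ arrays and was under the minimum in all 3 layers, at least 2.33-fold higher, with unbound RNA at 6.09. Kcnip1, a partner of Kv4 channels, was 2.9-fold higher, and Kcnh3 was 4.03-fold higher but reached 11.06 in TRAP RNA of Cck+ cortical neurons. Kcnn2, a calcium-activated channel, was 4.61-fold lower, with 8.73, 8.73 and 8.64 on the Cort+ arrays against a lowest layer mean of 10.21 in layer 5b. Of 25 tested sodium and calcium channel genes, 2 were higher, the transmembrane regulators Cacng7 and Cacng2, and 9 were lower. Cacng7 also passed the filter through Cort+ RNA alone, and its other probe set was under the minimum in Cort+ and layer RNA alike. Cacng2, stargazin, was 2.33-fold higher, whereas the T-type channel Cacna1h was at least 5.34-fold lower and Cacng5 at least 5.29-fold lower. Scn1a, the sodium channel of parvalbumin cells, was not called (0.47).

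Of 18 tested calcium-binding genes 2 were higher, Pvalb and Kcnip1, and 4 lower. Necab3 was 4.98-fold lower and Hpcal1 3.19-fold lower. Of 38 tested synaptic adhesion genes 2 were higher, both neurexophilins, and 8 were lower. Nxph2 passed the filter on low values through Cort+ RNA alone. Over all genes tested 4.6% were higher and 35.7% lower. Nxph2 had 8.27, 6.72 and 7.72 on the Cort+ arrays, against 5.33, 5.62 and 5.62 in layer 5a, 4.30, 3.31 and 3.93 in layer 5b and 4.38, 4.82 and 4.90 in layer 6, at least 2.97-fold higher and without overlap. Nlgn1, neuroligin 1, was 3.03-fold lower. Cbln4, a secreted organizer known from somatostatin cells, had 8.98, 9.21 and 8.98 on the Cort+ arrays, against means of 9.12, 9.44 and 11.44 in layers 5a, 5b and 6, and was lower than layer 6 (-2.39, adjusted p = 1.90e-07, limma) but not called over the 3 layers.

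**Figure D3:**
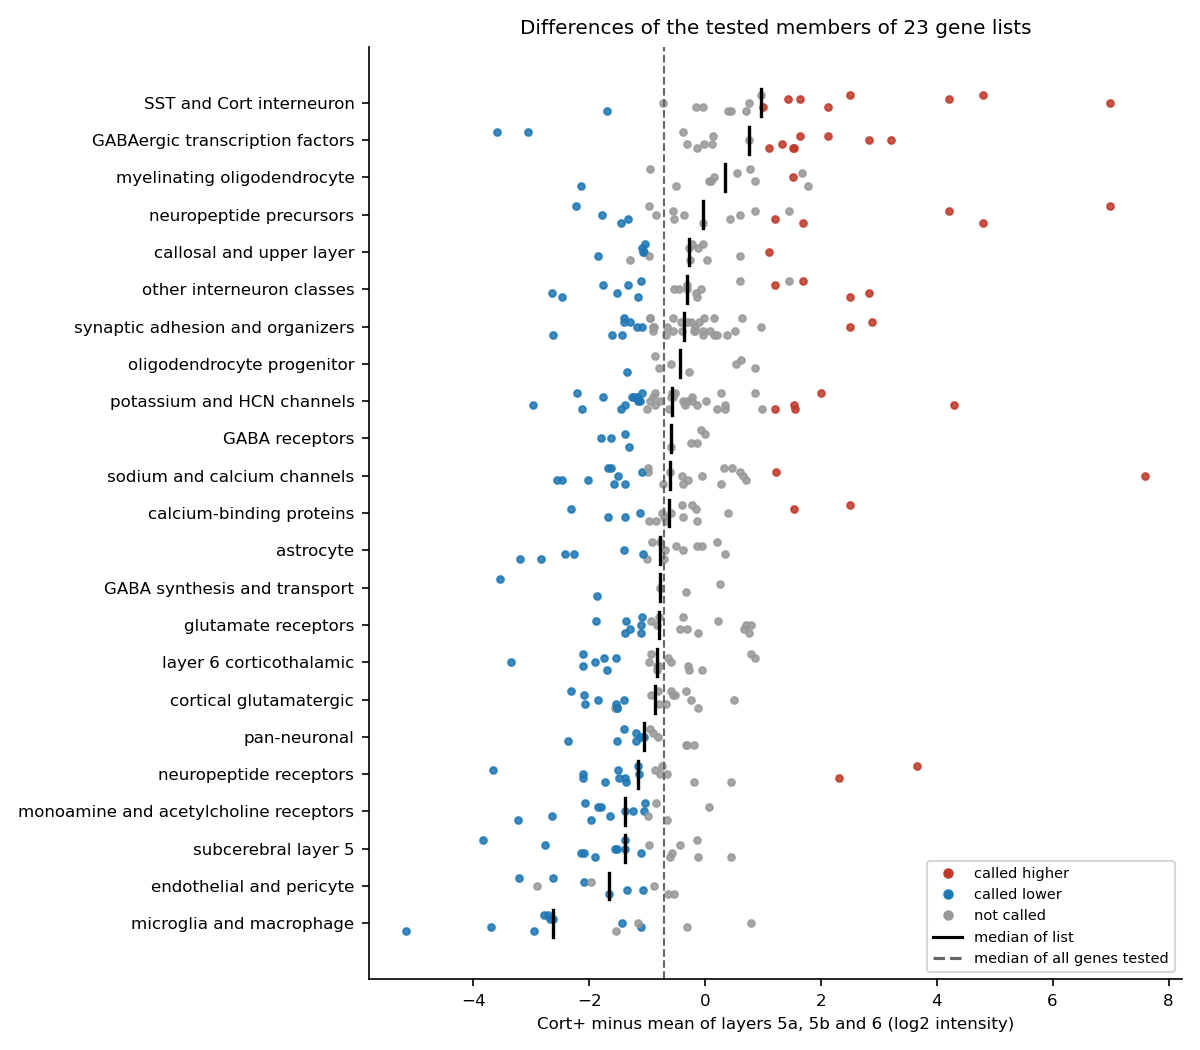
Difference between Cort+ RNA and the mean of layers 5a, 5b and 6 (horizontal axis, log2) for each tested member of 23 gene lists, 1 dot per gene, with list medians as black ticks and the median of all tested genes (-0.71) as a dashed line. The somatostatin and cortistatin list has the highest median (0.97) and the microglia and macrophage list the lowest (-2.63).

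By layer, the 3 comparisons gave unequal counts, which depended on the scaling. Against layer 5a, 344 genes (3.35%) were higher and 5627 (54.8%) lower. Against layer 5b, 808 genes (7.87%) were higher and 3260 (31.7%) lower, and against layer 6, 591 (5.76%) were higher and 2089 (20.3%) lower. Under quantile normalization 1031 genes were higher and 1869 lower against layer 5a, 1288 and 1720 against layer 5b, and 797 and 980 against layer 6. The somatostatin and cortistatin list had 5, 9 and 9 higher members against layers 5a, 5b and 6, with medians of 0.47, 1.27 and 1.05. The median over all genes was -1.14, -0.53 and -0.44 in the same order, and -0.27, -0.17 and -0.18 under quantile normalization. Without regard to the test, 534 genes (5.2%) had all 3 Cort+ arrays above all 9 layer arrays and 4698 (45.8%) had them below, which became 1243 and 2226 under quantile normalization. Among the 17 tested members of the somatostatin and cortistatin list, 6 lay above and 1 below.

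Set against unbound cortex RNA, 1229 of 9574 genes (12.8%) were higher in Cort+ RNA and 430 (4.49%) were lower. Of the 472 genes higher than the layers, 288 (2.8% of all tested) were also at least 2-fold above unbound RNA, and for 93 of the 472 (19.7%) unbound RNA itself was at least 2-fold above the layers. Meg3, a long noncoding RNA of neuronal nuclei, was of that second kind, with 13.34, 13.66 and 13.55 on the Cort+ arrays, against 8.91, 7.80 and 8.91 in layer 5a, 7.90, 7.58 and 6.92 in layer 5b and 8.32, 9.16 and 10.22 in layer 6, and 13.09 ± 0.62 (SD, n = 9) in unbound RNA. Its Cort+ level matched that of tissue RNA within the spread of the unbound arrays. Sst, Npy, Pvalb, Lhx6 and Nxph1 were called higher against unbound RNA as well as against the layers.

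The order of the largest differences depended on how levels under the minimum of 6 were treated. With such levels raised to 6, so that no fold rested on them, the genes with the largest folds toward Cort+ RNA included Sst (27.9-fold) and Npy (18.5-fold), and 6 of the top 15 were also among the 15 with the largest plain difference. Sema6c, a semaphorin of the neuronal membrane, was 21.6-fold higher, with 11.24, 11 and 10.92 on the Cort+ arrays against means of 6.74, 6.50 and 6.61 in layers 5a, 5b and 6. Its Cort+ mean was less than 2-fold above at least 1 of unbound cortex RNA, Cck+ TRAP RNA and Pnoc+ TRAP RNA. The other probe sets of Sema6c were under the minimum in Cort+ and layer RNA. This second order, and Sema6c, Cap1 and Slco1c1 named from it, were chosen after the values were seen. Of the 15 genes with the largest plain difference, 13 were under the minimum in all 3 layers, 8 lay within 1 log2 unit of their mean in TRAP RNA of Cck+ cortical neurons, another population of the series, and none lay that near in Pnoc+ TRAP RNA. Samhd1, a nucleotide hydrolase of antiviral defence, had 13.72, 13.59 and 13.59 on the Cort+ arrays, against 2.37, 2.37 and 2.68 in layer 5a, 2.09, 2.09 and 4.19 in layer 5b and 7.83, 5.94 and 5.94 in layer 6. The Cck+ mean was 13.54, the Pnoc+ mean 2.54, and the 4 measurable probe sets of Samhd1 disagreed, with differences from -2.73 to 9.69. Smo, the Hedgehog signal transducer, averaged 10.63 in Cort+ RNA, against 5.84, 2.72 and 2.75 in layers 5a, 5b and 6 and 10.86 in Cck+ RNA, and its other measurable probe set had a difference of -1.86. Cacng7 averaged 11.22 in Cort+ RNA, against 5.50, 2.09 and 3.28 in the layers and 10.78 in Cck+ RNA. Its other probe set was at 2.00 in Cort+ RNA and under the minimum in all 3 layers as well. Tcl1b3, Cfap61, Slc5a9, Fam71d and 3110021A11Rik had the same pattern, with Cck+ means of 11.18, 8.57, 9.18, 9.11 and 7.66 beside Cort+ means of 11.54, 9.13, 9.65, 8.67 and 7.62. Boll averaged 8.04 in Cort+ RNA and 10.83 in Cck+ RNA. All other probe sets of Cfap61, Slc5a9, Fam71d, 3110021A11Rik, Boll, Cfp and Mid1 were under the minimum in Cort+ and layer RNA. Cort itself was at 1.85 in Cck+ RNA and 7.13 in Pnoc+ RNA, and the host gene Mir124a-1hg (8.99 in Cort+ RNA), Cfp (8.07), A930013F10Rik (8.48) and Mid1 (7.80) had Cck+ means under the minimum. What these genes share with the Cck+ arrays beyond their level was not tested.

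**Figure D4:**
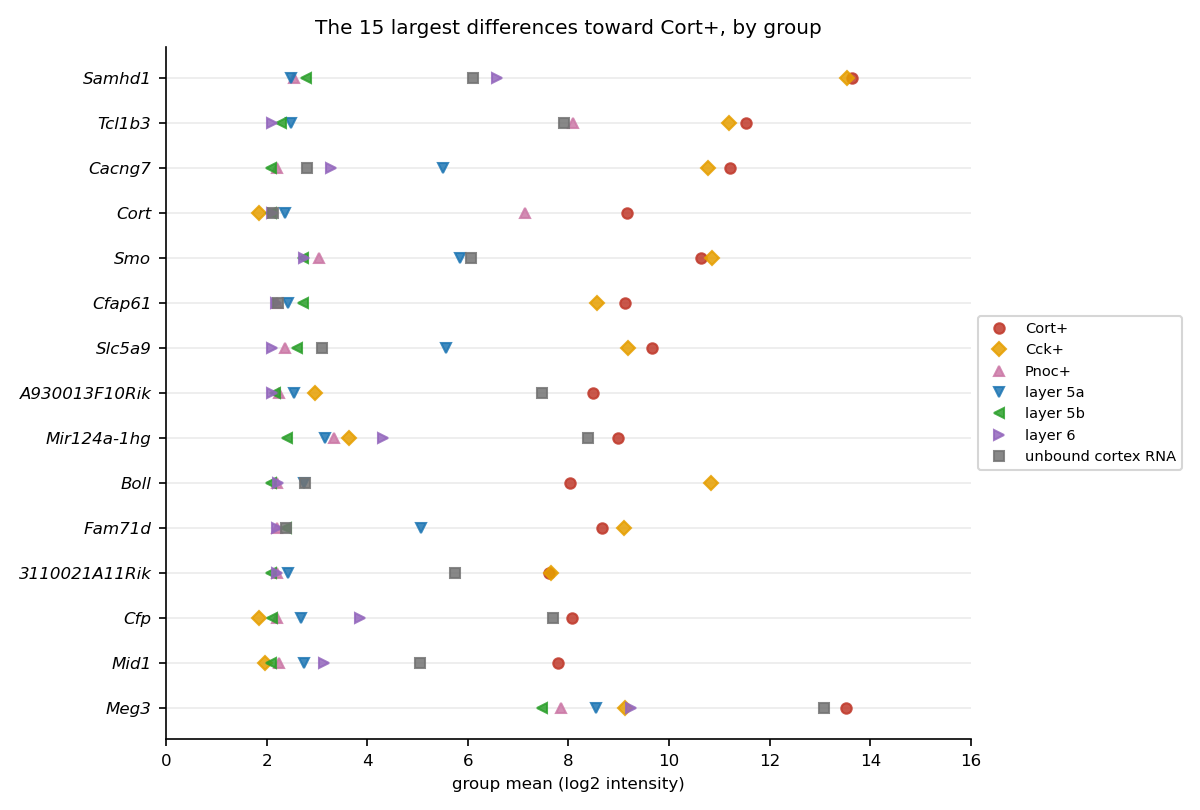
Mean log2 intensity (horizontal axis) of the 15 genes with the largest plain difference toward Cort+ RNA, in Cort+, Cck+, Pnoc+, layer 5a, layer 5b and layer 6 TRAP RNA and in unbound cortex RNA. For 8 of the 15 genes the Cck+ mean lies within 1 unit of the Cort+ mean, and for 13 all layer means are under 6.

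Toward the layers, ranking with levels under 6 raised to 6 kept 1 of the 15 genes with the largest plain difference, Tmem87a. The largest measured fold was that of Cap1, a regulator of actin, 24-fold lower, with 6.98, 7.77 and 6.98 on the Cort+ arrays against 11.97, 12.99 and 11.64 in layer 5a, 12.40, 13.28 and 11.72 in layer 5b and 10.29, 11.46 and 10.70 in layer 6. Slco1c1, a thyroid hormone transporter of vessels and astrocytes, was 10.8-fold lower, with 6.86, 6.86 and 6.55 on the Cort+ arrays against means of 10.28, 10.78 and 9.52 in layers 5a, 5b and 6. The 15 genes with the largest plain difference all lay under the minimum in Cort+ RNA, which that order favours, so their folds are bounds, and 13 of them were also under it in Cck+ RNA. Slc35d3, a nucleotide sugar transporter, was at 2.00 on all 3 Cort+ arrays, against 8.47, 7.59 and 8.02 in layer 5a, 7.80, 7.59 and 8.01 in layer 5b and 7.82, 8.70 and 8.37 in layer 6, at least 4.11-fold lower. Tmem87a (at least 10.3-fold), Fam43b (at least 7.8-fold), Ifngr2 (at least 4.9-fold), Gcdh (at least 4.37-fold), Ntn5 (at least 3.17-fold), Sema4c (at least 3.09-fold), Phkg1 (at least 3.03-fold), Slc22a8 (at least 2.64-fold), Dhx8 (at least 2.61-fold), Btd (at least 2.53-fold) and Ltbp4 (at least 2.47-fold) were lower with like bounds. Inppl1 (at least 3.09-fold) and H2ac19 (at least 6.59-fold) kept differences of -4.55 and -4.45 under quantile normalization but were not called there, since their layer level did not exceed unbound RNA. The remaining one, Mrc1, is a macrophage gene.

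Summed levels of non-neuronal marker genes were higher in some layer populations than in Cort+ RNA. The summed linear intensity of the microglia and macrophage list ran from 3381 to 9270 on the Cort+ arrays, against 31152 to 67706 in layer 5a, 7991 to 11975 in layer 5b and 3039 to 6322 in layer 6. 9 of its 13 tested members were lower in Cort+ RNA and none was higher, beside 35.7% and 4.6% over all genes tested. Mrc1 was at 2.53 on all 3 Cort+ arrays, against 11.67, 9.84 and 10.60 in layer 5a, 6.76, 6.76 and 6.85 in layer 5b and 5.57 on all 3 layer 6 arrays, and Cbr2, at 2.95 on all 3 Cort+ arrays, exceeded the minimum in layer 5a only (12.68, 11.34 and 10.83). Vascular genes summed to 609 to 807 on the Cort+ arrays, against 3467 to 7818 in layer 5a, 2207 to 4231 in layer 5b and 506 to 771 in layer 6. Of 11 tested vascular genes 6 were lower and none higher. The endothelial factor Sox18 averaged 2.01 in Cort+ RNA, against 4.37, 8.47 and 2.83 in layers 5a, 5b and 6, and Cldn5, of endothelial tight junctions, was at 4.88 on all 3 Cort+ arrays, against 9.90, 9.40 and 9.08 in layer 5b. Cldn5 was called lower over the 3 layers with the control-probe scaling only. Astrocyte genes summed to 37857 to 53112 on the Cort+ arrays, against 142108 to 169754 in layer 5a, 58864 to 67345 in layer 5b and 45789 to 64177 in layer 6. 6 of 17 tested members were lower with the control-probe scaling and none higher, a share of lower members near the 35.7% over all genes tested. Under both scalings 5 of the 17 were lower, beside 13.3% over all genes tested. Aldh1l1 was lower by 4.79-fold and Acsbg1 by 7.08-fold.

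The myelinating oligodendrocyte list summed to 54196 to 90858 on the Cort+ arrays, against 89023 to 115962 in layer 5a, 26325 to 32896 in layer 5b and 22979 to 40326 in layer 6. Mbp, myelin basic protein, had 14.20, 15.62 and 14.53 on the Cort+ arrays, against 14.51, 14.80 and 15.11 in layer 5a, 12.54, 11.96 and 13.18 in layer 5b and 11.83, 12.36 and 13.15 in layer 6, and 14.11 ± 0.67 (SD, n = 9) in unbound RNA. It was called higher over the 3 layers (1.51) while its 8 measurable probe sets ranged from -0.87 to 1.66, and Mag, of the same cells, was 4.39-fold lower. Of 12 tested members 1 was higher and 1 lower, and of 8 tested genes of oligodendrocyte progenitors none was higher and 1 was lower. Over all genes tested, 4.6% were higher and 35.7% lower. The part of these cell types in the differences of other genes was not tested.

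**Figure D5:**
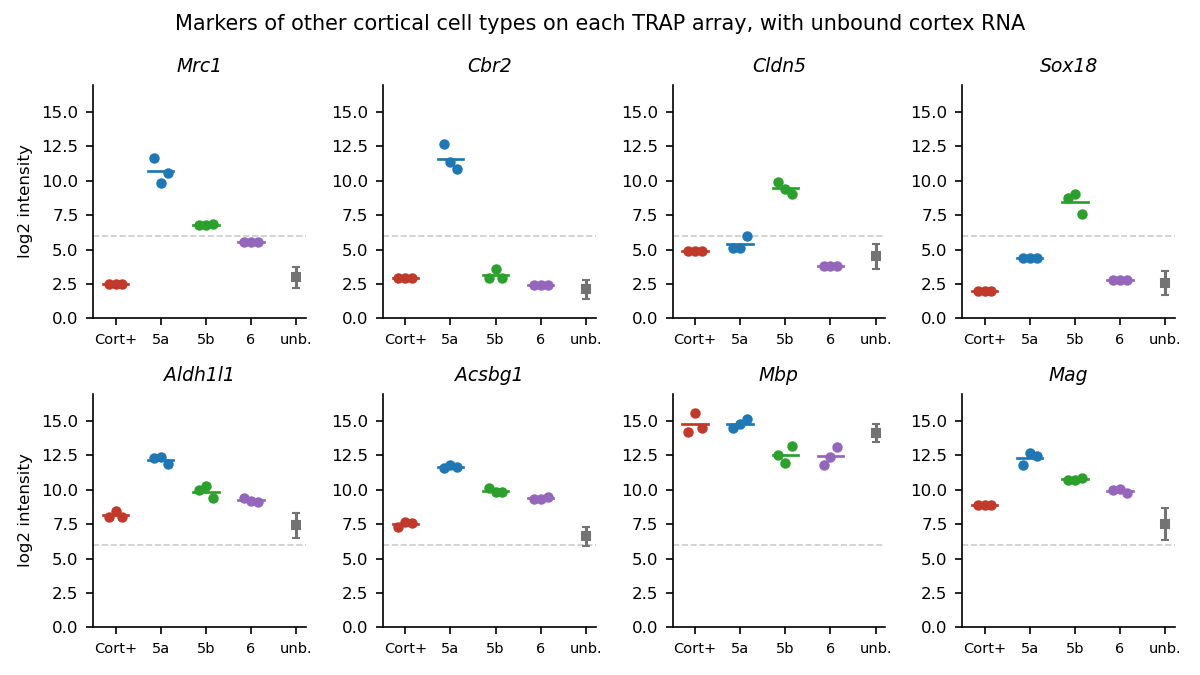
Log2 intensity (vertical axis) of 8 marker genes of macrophages (Mrc1, Cbr2), vessels (Cldn5, Sox18), astrocytes (Aldh1l1, Acsbg1) and oligodendrocytes (Mbp, Mag) on the 3 arrays each of Cort+, layer 5a, layer 5b and layer 6 RNA, with symbols as for the interneuron genes. Mrc1 and Cbr2 peak in layer 5a, Cldn5 and Sox18 in layer 5b, although the vascular list as a whole has its highest sum in layer 5a, and Mbp in Cort+ RNA lies at the level of layer 5a.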

How the data were processed

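RNA was labelled by 2-cycle amplification and hybridised to Affymetrix arrays, per the labels' protocols. The deposited values are linear fluorescence intensities of 45101 probe sets, made by the authors with GCRMA per the submitters' processing notes (version not given), and the arrays of each population share a smallest value of their own, as when each is normalized apart. Intensities were floored at 1, turned to log2 and shifted by 1 constant per label group so that 18 biotinylated control probe sets had equal means. A gene was its probe set with the highest mean among those with 1 symbol (18194 genes). Genes tested (10268) had a mean of at least 6 in 1 of the 4 populations and a level above unbound cortex RNA in 1 of them. limma 3.58.1 in R 4.3.3 fitted all arrays of the series (moderated variances with a trend), and the contrast was Cort+ minus the mean of the 3 layers. Calls needed an adjusted p under 0.05, a 2-fold difference and a level above unbound RNA. The method was tested on simulated data. Same-numbered replicates of different groups did not deviate together, so numbers were not used as pairs. The number of arrays limits the precision. Named genes are the drivers and markers, members of 23 lists, and the 15 largest non-overlapping differences each way; members and lists were chosen with earlier results of these data known. Alternatives tried were other scalings, minimums, probe set rules, tests and left-out arrays.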

Additional observations from a re-analysis of the deposited data

Results flagged for a closer look

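For 9 named genes the difference between Cort+ RNA and 1 layer ran opposite to that between Cort+ RNA and another layer, both past the threshold, and the 2 differences themselves differed in the same limma fit. Such opposite calls came up for 81 of the 10268 genes tested between layers 5a and 5b, 105 between layers 5a and 6 and 25 between layers 5b and 6. Both differences had at least 1 side at or above the minimum of 6 in 51, 60 and 5 of these genes, and the others rest on levels too low to measure. The Cort+ arrays enter both differences and cancel from the contrast between them, so each value below sets 2 layers against each other.

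Foxp2 was higher in Cort+ RNA than in layer 5a (2.07) and lower than in layer 6 (-1.15), and layer 5a minus layer 6 was -3.22 (adjusted p = 5.55e-11, limma). It was higher than in layer 5b (1.69), and layer 5b minus layer 6 was -2.84 (adjusted p = 1.17e-08, limma). The 3 measurable probe sets of Foxp2 ranged from -0.28 to 0.87 over the 3 layers. The set with the lowest value, at 7.47 in Cort+ RNA, 7.26 in layer 5a and 6.63 in layer 5b, was under 2-fold above either layer. It thus did not show the opposite differences. Pou3f3, a neuronal transcription factor, had differences of -1.83 to layer 5a and 1.18 to layer 6, and the layers differed by 3.00 (adjusted p = 9.18e-13, limma). Lrrc4b, a synaptic adhesion protein, had -1.29 to layer 5a and 1.36 to layer 5b, where both Cort+ and layer 5b means were under the minimum, and the layers differed by 2.66 (adjusted p = 4.10e-09, limma).

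The other 6 genes mark non-neuronal cells. Cldn5 had differences of -4.58 to layer 5b and 1.06 to layer 6, where both Cort+ and layer 6 means were under the minimum, and the layers differed by 5.65 (adjusted p = 2.47e-26, limma). C1qb, a complement gene of microglia, had -2.41 to layer 5a, 2.61 to layer 5b and 2.17 to layer 6, and layer 5a exceeded layer 5b by 5.02 (adjusted p = 5.00e-15, limma) and layer 6 by 4.58 (adjusted p = 1.95e-13, limma). Its 3 measurable probe sets ranged from -1.26 to 0.79 over the 3 layers, and the set with the lowest value, at 4.65 in Cort+ RNA and 4.92 in layer 5b, did not show the opposite difference to layer 5b. S100b, of astrocytes and some oligodendrocytes, had -2.56 to layer 5a and 1.11 to layer 6, and the layers differed by 3.67 (adjusted p = 2.24e-17, limma). Fgfr3, an astrocyte receptor, had -1.55 to layer 5a, 1.45 to layer 5b and 1.15 to layer 6, and layer 5a exceeded them by 3.01 (adjusted p = 1.12e-08, limma) and 2.71 (adjusted p = 1.48e-07, limma). Fa2h, an enzyme of myelin lipid synthesis, had -1.10 to layer 5a, 1.35 to layer 5b and 2.08 to layer 6, and layer 5a exceeded them by 2.45 (adjusted p = 3.99e-05, limma) and 3.18 (adjusted p = 1.17e-07, limma). Pdgfrb, a receptor of pericytes, had -1.99 to layer 5a and 1.05 to layer 5b, and the layers differed by 3.04 (adjusted p = 1.67e-09, limma). The share of such cells in each preparation was not tested. Groups of 3 arrays are too small for a check of single outlying arrays.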

How the results depend on the processing

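Levels rest on probe sets that hybridise unequally and on 3 arrays a group, many of them with tied values, so SDs of 0 are no sign of precision. Each population is 1 mouse line and 1 normalization, and non-neuronal RNA differed between them. Folds against levels under 6 are bounds. Why counts of calls moved with the scaling was not tested.

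Under quantile normalization over all arrays, Cort+ RNA had 955 higher and 1370 lower genes against the mean of the layers (472 and 3662 with the control-probe scaling), 1031 and 1869 against layer 5a, 1288 and 1720 against layer 5b, 980 lower against layer 6 and 668 lower against unbound RNA, and 1243 genes lay above and 2226 below all layer arrays. A call under both scalings left 1370 lower genes. Without further scaling 655 were lower than unbound RNA. With no expression minimum, which tests more genes, 757 were higher than the mean of the layers, 563 than layer 5a and 918 than layer 6, and 1078 were lower than unbound RNA. With a minimum of 8, which tests fewer, these were 291, 195 and 351, with 806 higher and 156 lower than unbound RNA. With probe sets of a gene averaged, 253 were higher than the mean of the layers, 192 than layer 5a, 432 than layer 5b, 362 than layer 6 and 756 than unbound RNA. With limma's treat, which tests against the 2-fold bound itself, 203 were higher and 1606 lower than the mean, 160 and 3189 than layer 5a, 340 and 1332 than layer 5b, 229 and 511 than layer 6, and 335 and 109 than unbound RNA. Asking for 2-fold over unbound RNA left 288 higher genes. This last choice, the call under both scalings and all alternatives for unbound RNA were added after the data were seen.

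Leaving out 1 array at a time gave 411 to 517 higher and 3252 to 4035 lower genes against the mean of the layers, 290 to 370 and 5274 to 5928 against layer 5a, 709 to 906 and 2933 to 3540 against layer 5b, 504 to 679 and 1429 to 2519 against layer 6, and 984 to 1437 and 358 to 528 against unbound RNA. With the replicate number as a block, 474 genes were higher and 3665 lower, and 4128 of the 4134 calls were kept. The numbers share no stated origin, and same-numbered arrays of different groups did not deviate together (4 of 18 correlations over 0.1), so they were not treated as pairs.

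None of the 150 genes named changed direction while called under any of these alternatives. Under quantile normalization 6 lost their call, of which H2ac19 (-4.45) and Inppl1 (-4.55) kept their difference but not a layer level above unbound RNA, while Cldn5 (-0.87), Penk (-0.85), Sstr2 (-0.89) and Th (-1.0) fell under 2-fold, and 12 gained one, among them Nefh (1.07), Scn1a (1.07) and Pnoc (1.34). With probe sets averaged, Chrm1 (-0.92), Gabrd (-0.92), Reln (-0.86), Kcnc1 (0.44), Maf (0.36), Mbp (0.74), Sox6 (0.51) and Tac1 (0.51) lost theirs, and Gad1 (-1.11) and Gad2 (-1.47) became lower. Without layer 5b, Cacng2 (0.96), Chodl (0.70), Cux2 (0.81), Dlx1 (0.81), Dlx2 (0.76) and Tac1 (0.99) fell under 2-fold. Without layer 6 Chodl and Dlx1 did, and without layer 5a H2ac19 (-4.36), Inppl1 (-5.12) and Penk (-0.99) lost their call. With treat, 27 of the 150 lost their call, among them Slc17a7 (-2.07), Kcnh3 (2.01) and Crh (1.70).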

Other observations

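Genes outside the lists were looked for among those called higher under both scalings. Of these 405 genes, 196 stood less than 1 log2 unit above their mean in Cck+ TRAP RNA, or below it. A stricter choice, made after the values were seen and therefore given without any test, kept genes whose Cort+ arrays did not overlap the layer arrays and whose Cort+ mean was at least 2-fold above unbound cortex RNA (209 genes), Cck+ TRAP RNA (92 genes) and Pnoc+ TRAP RNA (76 genes). Npy was not among the 76, since its Cort+ mean was less than 2-fold above Cck+ RNA, Pnoc+ RNA or both. Cort, Sst, Nxph1, Nxph2, Lhx6 and Pvalb were among the 76. So was Kdm5d, a gene of the Y chromosome, at 8.22 on all 3 Cort+ arrays against means of 3.67, 4.70 and 5.06 in layers 5a, 5b and 6. Whether the sex of the animals differed between groups was not tested, so membership of the 76 does not by itself mark a gene of the cell type.

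Rbp4, the plasma carrier of retinol, had 12.18, 11.55 and 12.24 on the Cort+ arrays, against 8.77, 9.05 and 9.10 in layer 5a, 8.40, 8.15 and 8.59 in layer 5b and 6.58, 7.16 and 7.16 in layer 6, with 7.73 in unbound RNA, 7.43 in Cck+ RNA and 8.48 in Pnoc+ RNA. Lgals1, the secreted lectin galectin-1, had 13.58, 13.15 and 13.70 on the Cort+ arrays, against 12.97, 12.01 and 12.25 in layer 5a, 9.11, 8.11 and 8.49 in layer 5b and 7.50, 8.68 and 8.99 in layer 6, with 9.72 in unbound RNA. Both lay above every layer array on all 3 Cort+ arrays. Vwc2, a secreted antagonist of bone morphogenetic proteins, averaged 12.66 ± 0.25 in Cort+ RNA (SD, n = 3), against 9.51, 7.49 and 9.73 in layers 5a, 5b and 6. Lypd6, a membrane protein that modulates nicotinic receptors, averaged 10.81 ± 0.26 (SD, n = 3), against 8.90, 7.87 and 8.02 in the layers. The transcription factor Zfp536 averaged 9.33 ± 0.07 (SD, n = 3), against 8.76, 7.08 and 6.14 in layers 5a, 5b and 6. Against layer 5a alone Zfp536 was not called (difference 0.57). Sall3, also a transcription factor, was at 6.58 on all 3 Cort+ arrays, just over the minimum, against 2.95, 2.11 and 2.24 in the layers. Ntng2, netrin G2, exceeded the minimum of 6 in Cort+ RNA (7.03 on all 3 arrays) and in none of the layers, nor in unbound, Cck+ or Pnoc+ RNA.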
